A study of Mus musculus with 12 samples.

Results

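The enzymes of fatty acid oxidation and ketogenesis are described here as 33 genes out of the 41743 that the deposited tables list. The members were set by name from the steps of the pathway, with earlier results of these data known. Every member was found once in both tables and passed the filter on low values in every comparison. The study sequenced liver RNA of 12 females, 3 to 4 months old, in 4 groups of 3. YAP KO mice (*Foxa3*-Cre, *Yap1* fl/fl, with a ROSA-stop-EYFP reporter allele, C57BL/6) were compared with WT littermates of the C57BL/6 strain. YAP KO TAZ HET mice (*Foxa3*-Cre, both alleles of *Yap1* and 1 allele of *Wwtr1* disrupted, mixed FVB and C57BL/6 background) were compared with WT littermates of that background. *Foxa3*-Cre acts in the early foregut endoderm, the source of hepatocytes and bile duct cells, so the alleles are lost from both lineages during development and not in the adult.

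Fatty acids are activated to acyl-CoA, carried into mitochondria as carnitine esters, and shortened in repeated rounds of dehydrogenation, hydration, a further oxidation and thiolysis. Peroxisomes run a parallel pathway for very long, branched and dicarboxylic chains and for the side chain of bile acid precursors. In the liver much of the acetyl-CoA goes to ketone bodies, which other tissues burn. The nuclear receptor PPAR alpha is the best known transcriptional activator of these genes in hepatocytes.

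The authors deposited TPM values (transcript abundance per gene), which scale reads for gene length and library total, so levels of different genes can be compared but the read depth behind each value is unknown. For the fold changes each library was first divided by its own scaling factor, then 1 was added and log2 was taken. YAP KO libraries had factors of 1.08 to 1.22, YAP KO TAZ HET libraries of 1.07 to 1.18 and WT libraries of 0.851 to 0.952, so a scaled fold change is lower than the ratio of the TPM values printed beside it. Without scaling, the median log2 fold change over all genes moved from -0.04 to 0.28 for YAP KO and from -0.04 to 0.24 for YAP KO TAZ HET, and the share of higher genes among those called moved from 50.8% to 84% and from 50.7% to 82.2%. All changes given are thus relative to the typical gene. *Yap1* was at 28.2 to 33.2 TPM in the 6 WT livers, 1.67 to 3.72 in YAP KO and 8.63 to 11.5 in YAP KO TAZ HET livers. *Wwtr1*, which encodes TAZ, was at 6.26 to 8.38 TPM in WT livers and at 11.5 to 16.7 TPM in the model mice. After scaling *Wwtr1* was higher in YAP KO mice by a log2 fold change of 0.72 (limma adjusted p = 0.00188), and its change of 0.27 in YAP KO TAZ HET mice, with 1 disrupted allele, did not pass (limma adjusted p = 0.0705).

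Most of the pathway was lower in both models. In YAP KO mice 24 of 33 members passed the threshold as lower and 0 as higher, where 18.1% and 18.7% of all 11704 tested genes did (limma with Benjamini-Hochberg adjustment, adjusted p under 0.05). In YAP KO TAZ HET mice 27 members were lower and 2 higher, against 18.7% and 19.2% of 11741 genes. Because the members were chosen with earlier results of these data known, these shares describe the members and do not test the list. Over the members the median log2 fold change came to -0.75 and -0.76, beside -0.04 for all genes in each. On scaled values, all 3 model mice were below all 3 littermates for 26 members (YAP KO) and 27 members (YAP KO TAZ HET), a pattern that 26.7% and 27.3% of all genes had. The same 24 genes were lower in both. *Acads*, *Ehhadh* and *Acaa1b* passed in YAP KO TAZ HET mice alone, *Crat* and *Acox2* were higher there, and *Acsl5*, *Crot*, *Acadm* and *Scp2* passed in neither. In bulk tissue, fewer cells of a type and less RNA per cell cannot be told apart. Without scaling the counts were 20 lower and 4 higher (YAP KO) and 21 lower and 3 higher (YAP KO TAZ HET). Of all genes, 5224 of 11704 and 4975 of 11741 were then called, 84% and 82.2% of them higher. With quantile normalization the member counts were 21 and 2, and 19 and 4. Of all genes, 4218 and 4367 were then called, 50.1% and 50.2% of them higher. The size of the difference also shrank with quantile normalization. The member medians were then -0.44 (YAP KO) and -0.40 (YAP KO TAZ HET), beside -0.05 and -0.04 for all genes.

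**Figure D1:**
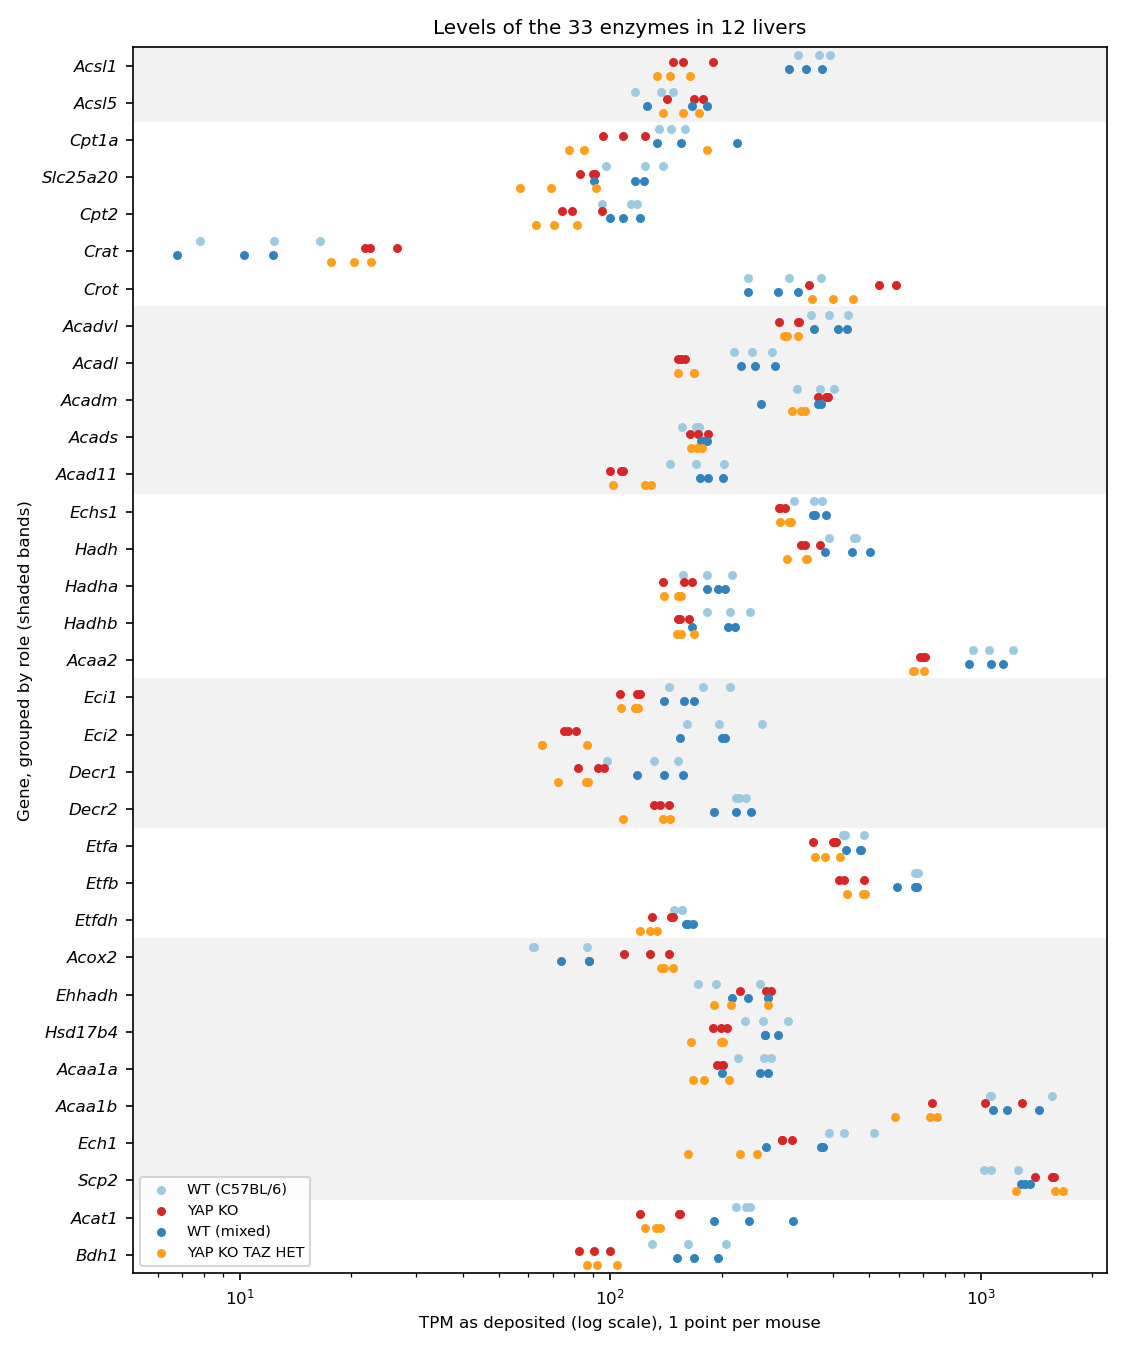
TPM as deposited (log axis) of each of the 33 enzymes in each of the 12 mice, 1 point per mouse, grouped by role from the acyl-CoA synthetases at the top to ketogenesis at the bottom. The clearest gaps between model and WT mice are at *Acsl1* and *Eci2*; *Crat* and *Acox2* are displaced the other way, and *Acsl5*, *Acadm*, *Acads* and *Ehhadh* overlap in both models.

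**Figure D2:**
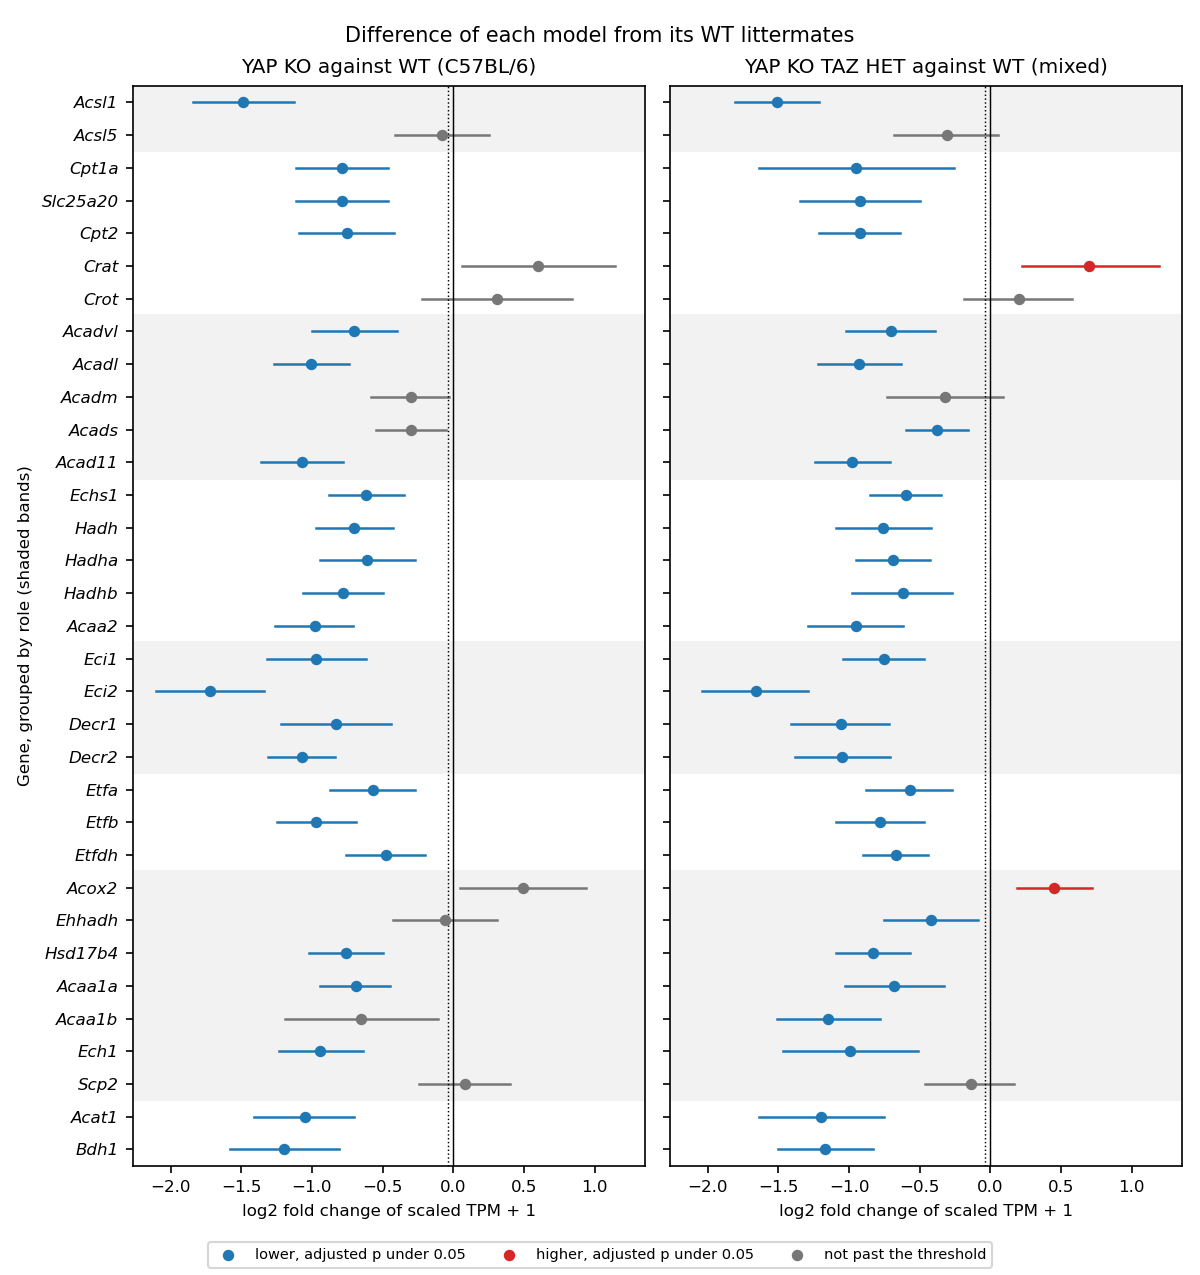
Log2 fold change of scaled TPM with 1 added (point) and its 95% confidence interval (line) for each enzyme, YAP KO against WT (C57BL/6) on the left and YAP KO TAZ HET against WT (mixed) on the right; the dotted line is the median of all tested genes, at -0.04. In both panels most points lie between -0.5 and -1.3, with *Eci2* and *Acsl1* farthest to the left.

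Activation of fatty acids was split between its 2 members. *Acsl1* (ENSMUSG00000018796, GRCm38 chromosome 8 from 46471037 to 46536051) encodes the main long-chain acyl-CoA synthetase of liver. It was at 367, 321 and 391 TPM in the C57BL/6 littermates against 148, 189 and 157 TPM with YAP KO. The mixed littermates had 338, 303 and 373 TPM against 145, 164 and 134 TPM with YAP KO TAZ HET. Every model mouse was thus below every WT mouse, by log2 fold changes of -1.49 (SE 0.15, limma adjusted p = 0.000262) and -1.51 (SE 0.13, limma adjusted p = 9.73e-05). *Acsl5*, a synthetase of the same family, ranged from 117 to 148 TPM in C57BL/6 littermates and from 142 to 178 TPM with YAP KO, and from 126 to 182 and from 139 to 174 TPM in the mixed set. These groups overlapped, and the log2 fold changes of -0.08 (95% interval -0.41 to 0.25) and -0.31 (95% interval -0.68 to 0.05) did not pass the test. The first turned to 0.28 without scaling.

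Because the ratio of 2 genes within a library does not depend on the scaling, the *Acsl5* share of the summed *Acsl1* and *Acsl5* TPM was also compared. It was 28.7%, 26.7% and 26% in WT (C57BL/6) and 53.2%, 48.5% and 47.5% in YAP KO livers, and 35%, 29.3% and 30.8% in WT (mixed) and 48.9%, 51.5% and 54.1% in YAP KO TAZ HET livers. The share went from 27.1% ± 1.42 to 49.7% ± 3.02 and from 31.7% ± 2.96 to 51.5% ± 2.58 (SD, n = 3; exact two-sided permutation p of 0.1 for either model, the smallest that 3 against 3 allow). The WT groups also stood apart without overlap, by 4.59 percentage points (exact permutation p = 0.1), a smaller gap than the 22.6 and 19.8 points of the models.

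**Figure D3:**
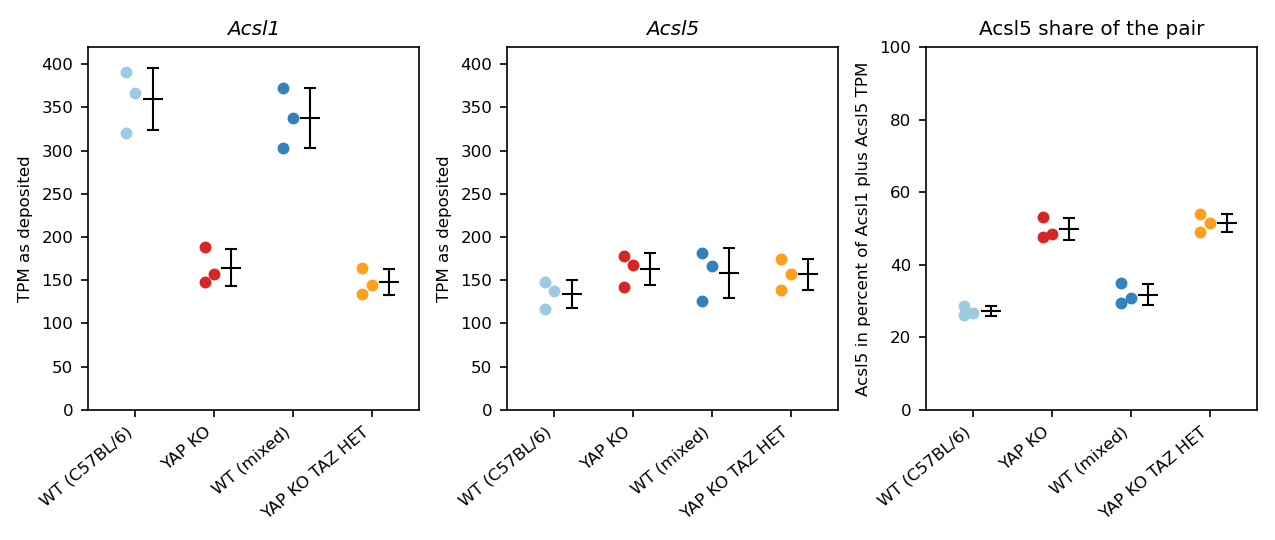
TPM of *Acsl1* and *Acsl5* and the *Acsl5* share of their sum in percent, 1 point per mouse, with the mean and SD of 3 mice beside the points. *Acsl1* is lower in all 6 model mice, *Acsl5* overlaps, and the share is 47.5% to 54.1% in the models against 26% to 35% in WT mice.

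The carnitine shuttle into mitochondria was lower at each of its 3 members. *Cpt1a*, the outer membrane transferase that sets the rate of entry, was at 135, 159 and 146 TPM in the C57BL/6 littermates against 95.4, 108 and 124 TPM with YAP KO, a log2 fold change of -0.79 (SE 0.14, limma adjusted p = 0.00352). The mixed littermates had 155, 220 and 134 TPM against 183, 85 and 77.6 TPM with YAP KO TAZ HET. Replicate LM225 lay within the WT range in these TPM, though on scaled values the groups did not overlap. The log2 fold change of -0.95 (SE 0.30, limma adjusted p = 0.036) passed in 5 of 12 alternative fits, with an adjusted p from 0.00263 to 0.138. Without WT replicate LM226 or LM227, or without YAP KO TAZ HET replicate LM250 or LM251, it did not pass (limma adjusted p of 0.0604, 0.108, 0.119 and 0.128).

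*Slc25a20*, the carnitine-acylcarnitine carrier, fell by 0.79 (SE 0.14) and 0.92 (SE 0.19) on the log2 scale. *Cpt2*, which remakes acyl-CoA inside the mitochondrion, fell by 0.75 (SE 0.15) and 0.92 (SE 0.12). The largest limma adjusted p of these 4 values was 0.00558, and both genes passed in all 12 alternatives of each model. In the TPM as deposited, *Cpt2* overlapped between the groups in the C57BL/6 set and *Slc25a20* in the mixed set. The 2 acyltransferases outside this route had higher mean TPM in the models. *Crat*, which moves short acyl groups such as acetyl to carnitine, was at 7.83, 12.4 and 16.5 TPM in the C57BL/6 littermates against 21.8, 26.6 and 22.5 TPM with YAP KO, and at 6.79, 12.3 and 10.3 against 22.6, 20.4 and 17.6 TPM in the mixed set. The TPM groups did not overlap. Log2 fold changes were 0.60 for YAP KO (limma adjusted p = 0.0782, and 0.0234 without WT replicate LM193) and 0.70 for YAP KO TAZ HET (limma adjusted p = 0.031, from 0.00426 to 0.0861 over 12 alternatives). Leaving out any of the 3 YAP KO TAZ HET mice lost the call of *Crat*, with an adjusted p of 0.0685 without LM225, 0.0861 without LM250 and 0.0614 without LM251. *Crot*, the peroxisomal carnitine octanoyltransferase, was at 303 ± 67.3 and 489 ± 128 TPM and at 280 ± 42.7 and 400 ± 50.5 TPM (SD, n = 3), WT before model. Its log2 fold changes of 0.31 and 0.20 did not pass (limma adjusted p of 0.321 and 0.384), though without scaling both did, at 0.68 and 0.52.

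The acyl-CoA dehydrogenases, which take the first step of each round, each act on a range of chain lengths. *Acadvl* and *Acadl*, for very long and long chains, fell by 0.70 (SE 0.13) and 1.01 (SE 0.12) in YAP KO and by 0.70 (SE 0.14) and 0.93 (SE 0.13) in YAP KO TAZ HET mice, with limma adjusted p of 0.00468 or less. *Acadl* was at 216, 242 and 274 TPM in the C57BL/6 littermates against 152, 155 and 159 TPM with YAP KO, and at 225, 279 and 246 against 168, 168 and 152 TPM in the mixed set. *Acad11*, another member of the family, fell by 1.07 (SE 0.13) and 0.98 (SE 0.11).

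*Acadm* and *Acads* act on medium and short chains. *Acadm* was at 364 ± 42.5 and 378 ± 12.6 TPM in WT (C57BL/6) and YAP KO livers, and at 330 ± 65 and 324 ± 12.6 TPM in the mixed set (SD, n = 3). The scaled log2 fold changes of -0.30 (95% interval -0.58 to -0.03) and -0.32 (95% interval -0.73 to 0.09) did not pass after adjustment, though *Acadm* passed as lower in YAP KO TAZ HET mice without WT replicate LM226 (limma adjusted p = 0.00896). *Acads* was at 167 ± 9.57 and 174 ± 10.2 TPM, and at 179 ± 3.18 and 171 ± 5.95 TPM. Its log2 fold change was -0.30 (SE 0.11, limma adjusted p = 0.062) in YAP KO mice, where it turned to 0.06 without scaling, and -0.38 (SE 0.10, limma adjusted p = 0.0153) in YAP KO TAZ HET mice, which passed in 7 of 12 alternatives. Whether the chain length classes differ was not tested. Leaving out WT replicate LM227 or YAP KO TAZ HET replicate LM250 or LM251 lost the call of *Acads* (limma adjusted p of 0.0543, 0.052 and 0.06).

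All 5 members of the later mitochondrial steps were lower in both models. *Acaa2*, the medium-chain thiolase and the most abundant of these 5, was at 956, 1052 and 1223 TPM in the C57BL/6 littermates against 698, 686 and 707 TPM with YAP KO. The mixed littermates had 931, 1064 and 1152 TPM against 655, 659 and 702 TPM with YAP KO TAZ HET. The 6 model mice lay below the 6 WT mice, with log2 fold changes of -0.98 (SE 0.12, limma adjusted p = 0.000567) and -0.95 (SE 0.15, limma adjusted p = 0.00158). The short-chain hydratase *Echs1* fell by 0.62 and 0.60, and the 3-hydroxyacyl-CoA dehydrogenase *Hadh* by 0.70 and 0.76. *Echs1* did not pass in YAP KO mice without scaling (-0.25, limma adjusted p = 0.0543), and with quantile normalization neither gene passed in YAP KO TAZ HET mice (limma adjusted p of 0.0704 for *Echs1* and 0.0507 for *Hadh*).

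*Hadha* and *Hadhb* encode the subunits of the mitochondrial trifunctional protein, which carries out these steps on long chains. *Hadha* fell by 0.61 (SE 0.15, limma adjusted p = 0.0137) and 0.69 (SE 0.11, limma adjusted p = 0.00206), and *Hadhb* by 0.78 (SE 0.12, limma adjusted p = 0.00183) and 0.62 (SE 0.15, limma adjusted p = 0.0139). The 2 genes lie head to head on chromosome 5, *Hadha* on the minus strand ending at 30155162 and *Hadhb* on the plus strand starting at 30155248. The 85 bases between their starts are shown because this one stretch lies upstream of both genes. GENCODE M21 annotates no gene or exon in it, and 69.4% of its bases are G or C.
Hadha and Hadhb (chr5:30155163-30155247, plus strand, RefSeq GRCm38.p6): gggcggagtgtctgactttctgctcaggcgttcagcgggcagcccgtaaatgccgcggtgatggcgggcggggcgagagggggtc
The *Hadhb* share of the summed TPM of the pair went from 53.5% ± 0.584 to 50.4% ± 2.07 in YAP KO mice (SD, n = 3; exact permutation p = 0.1), and was 50.3% ± 2.37 and 51.5% ± 1.44 in the mixed set (p = 0.7, exact permutation). Between the WT groups the share differed by -3.2 percentage points without overlap (mixed minus C57BL/6, exact permutation p = 0.1), as far apart as the -3.07 points of YAP KO. In the TPM as deposited, *Hadha* overlapped between the groups in the C57BL/6 set and *Hadhb* in the mixed set. *Hadha* did not pass in YAP KO mice without scaling or with quantile normalization (limma adjusted p of 0.156 and 0.0808), nor did *Hadhb* in YAP KO TAZ HET mice (0.0722 and 0.0854).

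The isomerases and reductases that prepare unsaturated chains held the largest difference of the 33 members. *Eci2* (ENSMUSG00000021417, chromosome 13 from 34977748 to 35027096), an enoyl-CoA isomerase of mitochondria and peroxisomes, was at 161, 197 and 257 TPM in the C57BL/6 littermates against 75.2, 81 and 77.1 TPM with YAP KO. The mixed littermates had 154, 204 and 200 TPM against 86.7, 65.5 and 65.6 TPM with YAP KO TAZ HET. The mean TPM of the models was 0.38 and 0.39 times that of the littermates with no overlap, and the log2 fold changes were -1.72 (SE 0.16, limma adjusted p = 0.000173) and -1.66 (SE 0.16, limma adjusted p = 0.000178). *Eci1*, the mitochondrial isomerase, fell by 0.97 (SE 0.15) and 0.75 (SE 0.12). The dienoyl-CoA reductases fell too, the mitochondrial *Decr1* by 0.83 (SE 0.17) and 1.06 (SE 0.15) and the peroxisomal *Decr2* by 1.07 (SE 0.10) and 1.05 (SE 0.15). These 4 genes passed in all 12 alternatives of both models.

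Electrons from the dehydrogenases pass through the 2 subunits of electron transfer flavoprotein to its ubiquinone oxidoreductase. *Etfb* was at 677, 674 and 666 TPM in the C57BL/6 littermates against 415, 483 and 427 TPM with YAP KO, and at 595, 665 and 674 against 436, 486 and 482 TPM in the mixed set. It fell by 0.97 (SE 0.12, limma adjusted p = 0.000649) and 0.78 (SE 0.14, limma adjusted p = 0.00288). *Etfa* fell by 0.57 (SE 0.13) in both, and *Etfdh* by 0.48 (SE 0.12) and 0.67 (SE 0.10). Within the flavoprotein, the *Etfb* share of the TPM of the 2 subunits went from 60.1% ± 1.96 to 53.4% ± 1.52 and from 58.3% ± 0.426 to 54.8% ± 1.06 (SD, n = 3; exact permutation p = 0.1 in each, with no overlap). *Etfa* did not pass in either model without scaling (log2 fold changes of -0.21 and -0.26), and *Etfdh* did not in YAP KO mice (-0.12) or when WT replicate LM193 was left out (limma adjusted p = 0.0504). With quantile normalization *Etfa* again passed in neither model (limma adjusted p of 0.156 and 0.184), and *Etfdh* did not pass in YAP KO mice (0.0763).

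The 7 peroxisomal members went in different directions. *Hsd17b4*, the D-bifunctional protein, fell by 0.76 (SE 0.11) and 0.83 (SE 0.11). *Ech1*, a dienoyl-CoA isomerase, fell by 0.94 (SE 0.13) and 0.99 (SE 0.21), and the thiolase *Acaa1a* by 0.69 (SE 0.11) and 0.68 (SE 0.15). Their limma adjusted p values were 0.00908 or less. In the mixed set the TPM of *Acaa1a* as deposited overlapped, and it did not pass without scaling (-0.37, limma adjusted p = 0.0616) or with quantile normalization (limma adjusted p = 0.0791). *Ech1* was also the 1 member with an unadjusted p under 0.05 between the WT groups, where its log2 difference was -0.47 (mixed minus C57BL/6, limma adjusted p = 0.811).

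*Acox2*, the oxidase for branched chains and bile acid precursors, went up. It was at 86.8, 62.2 and 62 TPM in the C57BL/6 littermates against 109, 128 and 144 TPM with YAP KO, and at 87.8, 73.6 and 87.8 against 140, 137 and 148 TPM in the mixed set. The TPM of every model mouse was above that of every WT mouse. The log2 fold change was 0.45 in YAP KO TAZ HET mice (SE 0.11, limma adjusted p = 0.0146) and 0.49 in YAP KO mice, which did not pass (SE 0.19, limma adjusted p = 0.0794, from 0.00325 to 0.223 over 12 alternatives). In YAP KO mice it passed without YAP KO replicate LM74 or WT replicate LM75 (adjusted p of 0.0365 and 0.0203). For YAP KO TAZ HET it did not pass when LM227 of the WT or LM251 of the model group was left out (0.0597 and 0.0661).

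*Scp2*, which encodes a sterol carrier and a thiolase for branched chains, had the highest mean TPM of the members in every group but WT (C57BL/6), where *Acaa1b* was higher. It was at 1018, 1069 and 1257 TPM in the C57BL/6 littermates against 1401, 1580 and 1557 TPM with YAP KO, without overlap. The mixed littermates had 1283, 1321 and 1360 TPM against 1665, 1588 and 1249 TPM with YAP KO TAZ HET, where LM251 lay below all 3 WT mice. After scaling the log2 fold changes were 0.08 (95% interval -0.24 to 0.40) and -0.14 (95% interval -0.46 to 0.17) and did not pass. In YAP KO mice *Scp2* passed as higher without scaling (0.44, limma adjusted p = 0.0116) and with quantile normalization (0.54, limma adjusted p = 0.00751), and with YAP KO TAZ HET under the latter alone (0.36, limma adjusted p = 0.0399). *Ehhadh*, the L-bifunctional protein, had overlapping TPM in both sets, with log2 fold changes of -0.06 (95% interval -0.43 to 0.31) and -0.42 (SE 0.14, limma adjusted p = 0.0473). The second passed in 3 of 12 alternatives, and was lost without LM225, LM226, LM227, LM230 or LM251, with an adjusted p from 0.0653 to 0.169.

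*Acaa1b*, a thiolase, was at 1067, 1058 and 1561 TPM in the C57BL/6 littermates against 1024, 1291 and 739 TPM with YAP KO. The mixed littermates had 1078, 1440 and 1180 TPM against 763, 728 and 587 TPM with YAP KO TAZ HET. The groups overlapped in the first set and not in the second, with log2 fold changes of -0.65 (SE 0.23, limma adjusted p = 0.0617) and -1.15 (SE 0.16, limma adjusted p = 0.00103). The value in YAP KO mice passed without YAP KO replicate LM189 (limma adjusted p = 0.0208). *Acaa1a* and *Acaa1b* lie on chromosome 9, and their longest coding transcripts matched at 96.6% identity over 81% and 84.5% of their lengths, so the counting could have split their reads. The *Acaa1b* share of the pair was 82.7% ± 3.1 and 83.1% ± 4.05 in the C57BL/6 set (SD, n = 3; exact permutation p = 0.9) and 83.7% ± 1.17 and 78.9% ± 1.26 in the mixed set (exact permutation p = 0.1). *Etfb* shares sequence with *Gm45233*, which reached at most 2.29 TPM. *Etfa*, *Hadhb* and *Scp2* match the pseudogenes or copies *Gm15285*, *Gm13910* and *Gm9108*, and *Scp2-ps2*, which the tables do not list.

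Both ketone body members were lower. *Acat1*, the mitochondrial acetoacetyl-CoA thiolase, was at 232, 218 and 238 TPM in the C57BL/6 littermates against 120, 153 and 154 TPM with YAP KO, and at 191, 237 and 311 against 136, 133 and 124 TPM in the mixed set. *Bdh1*, which interconverts acetoacetate and 3-hydroxybutyrate, was at 130, 162 and 205 against 90.2, 100 and 82.6 TPM, and at 151, 195 and 168 against 92.4, 104 and 86.4 TPM. No model mouse reached a littermate for either gene. The log2 fold changes were -1.05 (SE 0.15, limma adjusted p = 0.00138) and -1.20 (SE 0.19, limma adjusted p = 0.00198) for *Acat1*, and -1.20 (SE 0.17, limma adjusted p = 0.00109) and -1.17 (SE 0.15, limma adjusted p = 0.000565) for *Bdh1*.

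Added up, the 33 members made 10757 ± 1091 TPM in WT (C57BL/6) against 9109 ± 543 TPM with YAP KO, and 10871 ± 855 TPM in WT (mixed) against 8420 ± 642 TPM with YAP KO TAZ HET (SD, n = 3), or 0.842% to 1.09% of the total. A few abundant genes make up much of the sum. The peroxisomal members summed to 3579 ± 549 and 3605 ± 332 TPM in WT (C57BL/6) and YAP KO livers, with *Scp2* and *Acaa1b* the largest terms, and to 3720 ± 275 and 3143 ± 412 TPM in the mixed set. The carnitine group summed to 690 ± 40.5 and 792 ± 113 TPM, with *Crot* the largest, and to 679 ± 86.2 and 680 ± 108 TPM in the mixed set. The ketone body pair went from 395 ± 42.6 to 233 ± 21.6 TPM and from 418 ± 69.6 to 225 ± 13.8 TPM. Across the 33 members, level and log2 fold change were hardly related (Spearman's rho of -0.08 in each model, across genes that share the same libraries and are not replicates).

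Over the members every model mouse lay farther below its WT mean than any WT mouse, though single mice of a group also differed. The median scaled log2 distance from the WT mean was -0.93, -0.62 and -0.70 for LM74, LM189 and LM191 of the YAP KO group. For LM225, LM250 and LM251 of the YAP KO TAZ HET group it was -0.79, -0.70 and -0.78. Among WT mice it ran from -0.23 to 0.16. The lowest WT mouse was LM226 of the mixed set, in which 31 of the 33 members were below the mean of its group. Without LM226, 26 members passed as lower and 2 as higher, with a member median of -0.88. The highest WT mouse was LM193 of the C57BL/6 set, in which 4 of the 33 members were below the mean of its group. Without LM193, 23 members passed as lower and 1 as higher, with a member median of -0.68.

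Between the WT groups 0 of 33 members passed, where 0.216% of 11126 genes did, and the log2 differences ran from -0.47 to 0.19 (limma, 1 member at an unadjusted p under 0.05). When the models were set against each other (YAP KO change minus YAP KO TAZ HET change), 0 of 33 members passed, where 0.0576% of 12159 genes did, and 0 had an unadjusted p under 0.05 in limma. The 95% intervals of these differences all included 0, with half-widths of 0.30 to 0.80. The largest difference was that of *Acaa1b*, 0.50 (95% interval -0.17 to 1.17), and that of *Ehhadh* was 0.36 (95% interval -0.13 to 0.86). *Acads* differed by 0.08 (95% interval -0.22 to 0.37). The calls made in YAP KO TAZ HET mice alone were thus not shown to differ between the models, and the width of these intervals is what 3 mice a group allow. *Yap1* itself passed in this contrast (-1.59, limma adjusted p = 0.0385), with the larger fall in YAP KO mice. The *Wwtr1* allele, the remaining *Yap1* RNA and the strain background cannot be told apart in it.

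Genes that supply the pathway or share its products were compared from fixed lists, from which at most 3 genes each are named by their mean change over the models. For the counts of all these lists, 18.1% (YAP KO) and 18.7% (YAP KO TAZ HET) of all tested genes were lower and 18.7% and 19.2% higher. Of 17 genes of fatty acid uptake, binding and activation (16 tested), 8 (YAP KO) and 9 (YAP KO TAZ HET) were lower and 2 and 3 were higher. *Fabp1*, the liver fatty acid binding protein, was at 6267, 8346 and 12239 TPM in the C57BL/6 littermates against 1860, 1904 and 1411 TPM with YAP KO, and at 7541, 7004 and 9816 against 1561, 1719 and 1310 TPM in the mixed set. Its log2 fold changes were -2.70 (SE 0.24, limma adjusted p = 0.000111) and -2.72 (SE 0.19, limma adjusted p = 3.06e-05). *Slc27a2*, an acyl-CoA synthetase and transporter for very long chains, had log2 fold changes of -1.47 and -1.50, and the carnitine transporter *Slc22a5* of -1.26 and -1.29. *Cd36*, a fatty acid translocase named here after its values were seen, was higher by 1.62 and 0.60 (limma adjusted p of 0.000722 and 0.0393).

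Of 7 other ketone body genes (6 tested), 4 and 3 were lower in the respective models and 2 were higher in each. *Bdh2*, a cytosolic hydroxybutyrate dehydrogenase, fell by 2.25 and 2.51, and *Aacs*, which activates acetoacetate for lipid synthesis, fell by 1.78 and 2.10. The higher ones, named after their values were seen, were *Oxct1*, the enzyme by which other tissues use ketone bodies (1.04 and 0.89), and *Slc16a1*, a monocarboxylate carrier (0.60 and 0.62). *Oxct1* stayed low, at 1.7 to 4 TPM in WT and 6.29 to 8.89 TPM in model livers.

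Of 7 other acyl-CoA dehydrogenases, most of them of amino acid breakdown, 4 and 5 were lower and 1 was higher in each. *Gcdh*, the glutaryl-CoA dehydrogenase, passed as lower in both (limma adjusted p of 0.000481 and 0.000279, with a log2 fold change of -1.09 in the second model). The log2 fold changes were -0.80 and -0.83 for *Ivd* and -0.78 and -0.85 for *Acadsb*. Among 17 other peroxisomal lipid enzymes and transporters (16 tested), 12 and 14 were lower and 1 was higher in each model. The acyl-CoA thioesterases *Acot3* and *Acot4* had log2 fold changes of -4.27 and -4.19 and of -2.03 and -1.87, and the peroxisomal transporter *Abcd3* of -1.22 and -1.42. Of 16 peroxins, the proteins that build peroxisomes, 11 and 14 were lower and 0 higher. The log2 fold changes were -1.37 and -1.27 for *Pex11a*, -1.07 and -0.90 for *Pex16* and -1.02 and -0.65 for *Pex26*. Of 15 genes of mitochondrial content, 8 and 11 were lower and 0 higher, with medians of -0.32 and -0.40 beside -0.75 and -0.76 for the members. *Hspd1*, *Phb2* and *Tfam* fell by 0.58, 0.75 and 0.56 in YAP KO and by 0.88, 0.66 and 0.55 in YAP KO TAZ HET mice.

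Of 18 regulators, 9 and 10 were lower and 1 was higher. *Ppara* was at 40.7, 39.7 and 50 TPM in the C57BL/6 littermates against 21.7, 15.4 and 18 TPM with YAP KO, and at 76.3, 72.8 and 48.6 against 40.3, 16.1 and 14.5 TPM in the mixed set. The groups did not overlap in either set, and the log2 fold changes were -1.56 (SE 0.13, limma adjusted p = 9.81e-05) and -1.87 (SE 0.32, limma adjusted p = 0.00267). LM225, in which the deposited TPM of *Cpt1a* was within the WT range, also had the highest *Ppara* of its group. A relation between the genes was not tested. *Acacb*, which makes the malonyl-CoA that blocks *Cpt1a*, fell by 1.05 and 1.13, and *Pparg* was higher by 1.13 and 0.60. Of 14 other target genes of PPAR alpha, 8 and 9 were lower and 1 and 2 higher, with medians of -0.78 and -1.12. The thioesterase *Acot1* had log2 fold changes of -2.81 and -2.42 and the fatty acid hydroxylase *Cyp4a10* of -2.72 and -1.94. *Pdk4*, a kinase that shuts off pyruvate oxidation, stayed between 2.2 and 3.71 TPM in the 6 WT mice, reached 22.8 to 44.7 TPM with YAP KO and 11.5 to 19.8 TPM with YAP KO TAZ HET, and rose by 2.65 (SE 0.28, limma adjusted p = 0.000284) and 1.87 (SE 0.24, limma adjusted p = 0.00061).

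**Figure D4:**
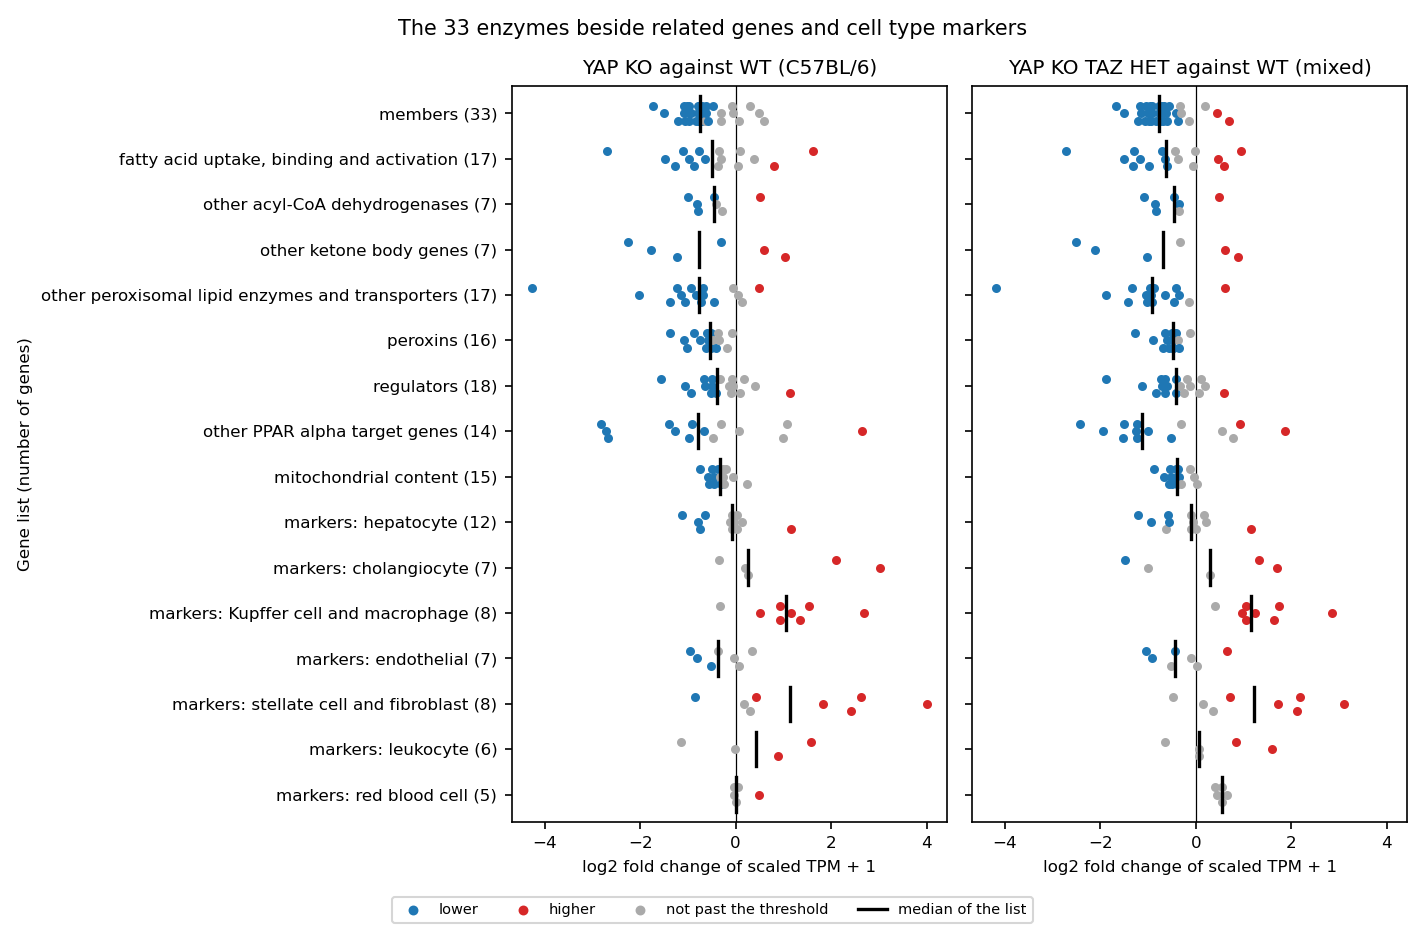
Log2 fold change of scaled TPM with 1 added for each tested gene (points, blue lower and red higher at a limma adjusted p under 0.05) of the 33 enzymes, of 8 related lists and of 7 lists of cell type markers, with the median of each list as a black bar. The members' medians are -0.75 and -0.76, the hepatocyte markers' -0.08 and -0.11, and those of macrophage and of stellate cell and fibroblast markers are above 1.

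The promoters of 28 of the 33 members (31 promoters, the 250 bases before each start) were matched in the RefSeq table of GRCm38.p6, and 5 members (*Crat*, *Acaa2*, *Decr1*, *Hsd17b4* and *Acat1*) were not. The element of PPAR alpha is 2 copies of AGGTCA 1 base apart, and with at most 2 mismatches in its 12 letters it was found on either strand in 2 of 31 member promoters (6.45%), those of *Echs1* and *Etfa*, against 3.24% of 32851 promoters. These windows are shown, with the matched letters in capitals, because *Ppara* was lower in both models, as most members were. A relation between *Ppara* and these genes was not tested. *Etfa*'s window is outside any annotated gene, and that of *Echs1* lies within the span of its neighbour *Paox*, outside its exons.
Echs1 (chr7:140116480-140116516, minus strand): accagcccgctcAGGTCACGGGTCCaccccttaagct
Etfa (chr9:55512296-55512332, minus strand): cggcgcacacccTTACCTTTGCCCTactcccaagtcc
The letters GGAATG, which TEAD factors, the DNA-binding partners of YAP and TAZ, recognise, were found in 5 of 31 member promoters (16.1%) against 12.6% of all. These were *Acsl1*, *Slc25a20*, *Etfb*, *Ehhadh* and *Cpt1a*. The window of *Cpt1a* lies within the gene as GENCODE M21 draws it, outside its exons, and the other 4 are outside any gene.
Acsl1 (chr8:46470887-46470916, plus strand): gcttgggaggcgGGAATGgcgccgatgggg
Slc25a20 (chr9:108661982-108662011, plus strand): gtccctgacaatCATTCCcaagcccctccc
Etfb (chr7:43443914-43443943, plus strand): acttcactcctaGGAATGccctttccccta
Ehhadh (chr16:21787954-21787983, minus strand): cttgcctgtggaCATTCCctttggaagcat
CATTCC is the same element read on the opposite strand. CCAAT was in 14 of 31 member promoters (45.2%) against 33.8% of all, and TCAAGGTCA, the element of estrogen-related receptors, in 0 of 31 against 0.387% of all. These are matches of letters in a short window and say nothing of binding.

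Hepatocyte markers were abundant in every liver. The 12 hepatocyte markers summed to 113712 ± 6437 and 115412 ± 6406 TPM in WT (C57BL/6) and YAP KO livers and to 111318 ± 11377 and 117931 ± 10985 TPM in the mixed set (SD, n = 3). These sums and those of the other markers are TPM as deposited, without the scaling factors, so they are not on the scale of the fold changes. The median log2 fold changes of the hepatocyte markers, on scaled values, were -0.08 and -0.11, with 4 lower and 1 higher in each model. For these and the other marker counts, 18.1% and 18.7% of all tested genes were lower and 18.7% and 19.2% higher. Markers of other cells went in different directions. Of 8 Kupffer cell and macrophage markers 7 were higher in each model, and their sum ranged from 217 to 267 TPM in C57BL/6 littermates against 540 to 845 TPM with YAP KO, and from 192 to 413 against 820 to 1015 TPM in the mixed set. *Marco* rose most, by 2.70 and 2.85. Of 8 stellate cell and fibroblast markers 5 were higher in each, led by *Col1a1* (4.01 and 3.11), and 1 was lower in YAP KO mice. Their sum ranged from 141 to 164 against 386 to 510 TPM and from 124 to 150 against 329 to 426 TPM.

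Of 7 cholangiocyte markers 2 were higher in each, *Spp1* (3.03 and 1.33) and *Sox9* (2.10 and 1.70), while *Epcam* fell by 1.48 in YAP KO TAZ HET mice. The defining *Krt7* and *Cftr* stayed under the filter in the fits of both models, with group means of at most 0.733 and 0.0588 TPM. These fits include the WT littermates, so falling under the filter is not particular to the models. The list summed to 36.7 to 64.3 TPM in C57BL/6 littermates against 336 to 759 TPM with YAP KO, most of it *Spp1*, and to 50.3 to 66.9 against 110 to 231 TPM in the mixed set. In adult livers of both models the paper saw no intrahepatic bile ducts when staining the duct marker CK19. Whether the sum follows the number of bile duct cells was not tested. Of 6 leukocyte markers (4 and 5 tested) 2 were higher in each, with sums of 10.3 to 15.9 and 21.3 to 36.5 TPM and of 8.21 to 12.1 and 19 to 33.1 TPM. Of 7 endothelial markers 3 were lower in each and 1 was higher with YAP KO TAZ HET, with sums of 90.1 to 101 and 82 to 121 TPM and of 120 to 125 and 98.5 to 137 TPM. Of 5 red blood cell markers 1 and 0 passed, with sums of 1060 to 2202 and 1958 to 2179 TPM and of 878 to 918 and 855 to 2730 TPM. The lists outside hepatocytes, red blood cells left aside, held on average at most 0.0944% of the TPM each, and their part in the lower levels of the members was not tested.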

How the data were processed

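The authors extracted RNA from frozen liver, sequenced it as paired ends, aligned it in CLC Genomics Workbench with GRCm38.p6 as the genome, and deposited TPM per gene and mouse for the 12 mice in 2 tables, 1 per model with its WT littermates. The columns of the authors' own comparisons hold fold changes and p-values and were not used. All TPM columns matched a sample. Every library sums to 1000000 TPM, so depth is unknown and the spread of 3 mice is the only error; no litter is given, so p-values measure the spread between these mice.

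TPM values were scaled by a trimmed mean of log ratios (30% of ratios and 5% of levels trimmed at each end). A gene entered a fit where 3 or more libraries reached 1 TPM, and was tested on log2(scaled TPM + 1) with limma 3.58.1 in R 4.3.3 (variance trend, two-sided, Benjamini-Hochberg adjustment over all tested genes, threshold 0.05). The pseudocount understates changes of low genes. The 6 libraries of a model and its littermates made a fit, as did the 6 WT libraries, and the contrast of the models used 12. The models' comparisons share no mouse. Shares within a library were compared by exact permutation. Copies were found with blastn 2.17.0 (90% identity over 30% of the transcript). The steps were tested on simulated data.

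All 33 members are named, with at most 3 genes of each related list that passed in both models, ranked by mean absolute log2 fold change, and *Yap1* and *Wwtr1*; other genes are said to be chosen after seeing values or are cell type markers. Some genes of the related lists that the rule would name are not reported here. Members and lists were chosen with earlier results of these data known. Alternatives were a pseudocount of 0.1, a filter at 5 TPM or none, quantile normalization or no scaling, 1 fit of all 12 libraries, and each mouse left out.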

Additional observations from a re-analysis of the deposited data

How the results depend on the processing

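The counts of members called stayed within 1.5 times the reported ones under every alternative, at 23 to 27 in YAP KO and 23 to 29 in YAP KO TAZ HET mice, and the counts between the WT groups and between the models stayed at 0. These counts add both directions. Lower calls ran from 20 to 26 and from 19 to 27, and higher calls from 0 to 4 in each model. In YAP KO mice without scaling, *Echs1*, *Hadha*, *Etfa* and *Etfdh* were lost as lower, and *Crat*, *Crot*, *Acox2* and *Scp2* were gained as higher. Scaling mattered most. Without it, members that had not passed or passed narrowly turned positive: *Acsl5* (0.28), *Acadm* (0.06), *Acads* (0.06) and *Ehhadh* (0.30) in YAP KO mice, and *Acsl5* (0.00, just above) and *Scp2* (0.17) in YAP KO TAZ HET mice. With quantile normalization this held for *Acsl5* (0.16), *Acadm* (0.05) and *Ehhadh* (0.27) in YAP KO mice and for *Acadm* (0.07) and *Scp2* (0.36, which passed) in YAP KO TAZ HET mice. With mice left out in turn, *Acsl5* ran from -0.21 to 0.01 and *Ehhadh* from -0.20 to 0.09 in YAP KO mice. The cause was not tested. No paired analysis was possible because the mice carry individual numbers that no groups share. With a mouse left out of a group, the spread of the others stands for it. TPM keep no depth, so limits from read counts cannot be given.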
